A study of Homo sapiens with 6 samples.

Results

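The genes described are the calcium pumps and sodium-calcium exchangers: the 3 SERCA genes (ATP2A1, ATP2A2 and ATP2A3), the 4 PMCA genes (ATP2B1 to ATP2B4) and the 3 NCX genes (SLC8A1, SLC8A2 and SLC8A3). These 10 genes were picked by name from the 58051 Ensembl genes in the count files, without use of their counts, although earlier results of these data were known. A172 cells are a long-established line from a human glioblastoma, and the study asked how supplying RBFOX1, an RNA-binding protein, alters the transcripts of these cells. All libraries came from A172 lines that had stably received a lentiviral vector. In 3 of them the vector carried RBFOX1 and in the other 3 it carried GFP, the control, so that both groups share the transduction. The promoter of the vector, and whether a line was 1 clone, are not given in the sources used here.

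Calcium in the cytosol is kept low by these transporters. SERCA pumps use ATP to return calcium to the endoplasmic reticulum (ER), and PMCA pumps use ATP to expel it across the plasma membrane with high affinity. NCX proteins expel it in exchange for sodium, which the sodium-potassium pump keeps low inside the cell, and they move more calcium but bind it less tightly. SERCA2, from ATP2A2, is the housekeeping form outside fast skeletal muscle, and PMCA1 and PMCA4, from ATP2B1 and ATP2B4, are found in most cells, whereas PMCA2, PMCA3, NCX2 and NCX3 are mainly forms of brain or muscle.

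RBFOX1 recognizes the motif TGCATG, with U for T in RNA, and the copies of this motif in the 3' UTRs of the 4 most abundant members are shown because the comparison is one of cells with and without that protein. The sense strand of the canonical transcript was searched (GENCODE 44, GRCh38), the motif is in capitals, 12 bases are given on either side, and the coordinates are those of the motif itself.
ATP2A2 site 1 (chr12:110346878-110346883, plus strand): tattgtgtctttTGCATGatgatccggatt
ATP2A2 site 2 (chr12:110350352-110350357, plus strand): tgttcggttgcgTGCATGtgcgtttttagc
ATP2A2 site 3 (chr12:110350389-110350394, plus strand): ctaccaaccctgTGCATGactgatgttggg
ATP2A2 site 4 (chr12:110350680-110350685, plus strand): attcaattgtaaTGCATGccttcggttgta
ATP2B1 site 1 (chr12:89588960-89588965, minus strand): ccattaatgtgcTGCATGatcttgggaaaa
ATP2B1 site 2 (chr12:89588762-89588767, minus strand): aagatttagaagTGCATGtgctttggagga
ATP2B4 site 1 (chr1:203743737-203743742, plus strand): actattgtggtcTGCATGacataaacaaac
ATP2B4 site 2 (chr1:203743882-203743887, plus strand): tgtacaaggtttTGCATGtatttatatggt
SLC8A1 site 1 (chr2:40114163-40114168, minus strand): cctgttacacagTGCATGgtgaaaaacaaa
SLC8A1 site 2 (chr2:40111054-40111059, minus strand): caaaaattctgaTGCATGcctttcccctgt
SLC8A1 site 3 (chr2:40110714-40110719, minus strand): attttgggcagtTGCATGcagagcaagttc
SLC8A1 site 4 (chr2:40101787-40101792, minus strand): ggatggttctgaTGCATGctcaaatttgag
SLC8A1 site 5 (chr2:40097565-40097570, minus strand): aatgactcttccTGCATGctgcctgagata
Sites 2, 3 and 4 of ATP2A2 lie together 3882, 3919 and 4210 nucleotides past the stop codon of a 3' UTR of 4623 nucleotides, and site 1 lies at 408. Of the 1487 other genes whose 3' UTR is within 20% of that length, 73.3% hold the motif and 6.99% hold at least 4 copies. The 3' UTR of ATP2B1 has 2935 nucleotides and that of ATP2B4 4227, and 2 or more copies occur in 25.2% and 37.8% of genes of like length. With 17983 nucleotides the 3' UTR of SLC8A1 is so long that only 33 genes compare, whose median is also 5 copies. No TGCATG lies in the canonical 3' UTR of ATP2A1, ATP2A3, ATP2B2 or SLC8A3. Of genes of like length, 9.27%, 36.1%, 74.5% and 39.1% hold at least 1. ATP2B3 has 1 copy and SLC8A2 has 2, beside 55.9% and 46.9% of genes of like length with at least 1. Over all 19220 protein-coding genes, whose median 3' UTR has 1065 nucleotides, the share is 33.3%. As the results below show, 1 of the 4 genes printed was higher and 3 were lower in RBFOX1 cells. Binding of RBFOX1 to these copies, and any effect of them, was not tested.

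Libraries held 7433414 to 23249221 counts on genes, and RBFOX1 itself averaged 1.16 ± 1.22 normalized counts (counts scaled to the mean library) in GFP and 18835 ± 675 in RBFOX1 libraries (SD, n = 3 each). GFP replicate 1, the deepest, stood apart from the other GFP libraries: the chi-square per degree of freedom was 8.90 and 9.07 against GFP replicates 2 and 3, 1.66 between replicates 2 and 3, and 1.98 to 3.01 among RBFOX1 libraries. This measure grows with depth, and the members' changes without that library are given beside them. Of 10 markers of glioma and astroglia, SOX2, SOX9, NES, VIM, CD44 and EGFR had at least 10 counts in every library, and S100B, FABP7 and AQP4 had at most 3. Over that list, the summed normalized count lay between 79966 and 80831 in GFP and between 53185 and 53773 in RBFOX1 cells. Levels are given as FPKM, here the TMM-scaled CPM divided by the kilobases covered by a gene's exons, and the conditions were compared by edgeR's quasi-likelihood test over 20536 genes, called at an adjusted p under 0.05. The study describes 3 biological replicates of each condition, and p-values measure the spread between these libraries.

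A172 cells carried both housekeeping PMCA transcripts at the highest levels, then ATP2A2, then SLC8A1, and little of the rest. In GFP cells the mean level was 28.8 ± 2.67 FPKM for ATP2B4 and 26.0 ± 0.417 for ATP2B1 (SD, n = 3 each), values whose library ranges overlap. ATP2A2 followed at 9.86 ± 1.40, SLC8A1 at 5.09 ± 0.159 and ATP2A3 at 1.03 ± 0.0710 FPKM (SD, n = 3 each). From ATP2B1 downwards, each gene in this order exceeded the next in all 3 GFP libraries. ATP2A1, the form of fast skeletal muscle, was at 0.112 ± 0.0156 FPKM (SD, n = 3), from 11, 7 and 6 counts in GFP replicates 1, 2 and 3. The neuronal pump genes ATP2B2 and ATP2B3 and the exchanger genes SLC8A2 and SLC8A3 never exceeded 2 counts in a GFP library, where the limit of 3 counts that a count of 0 allows was worth 1.82 to 3.50 normalized counts.

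**Figure D1:**
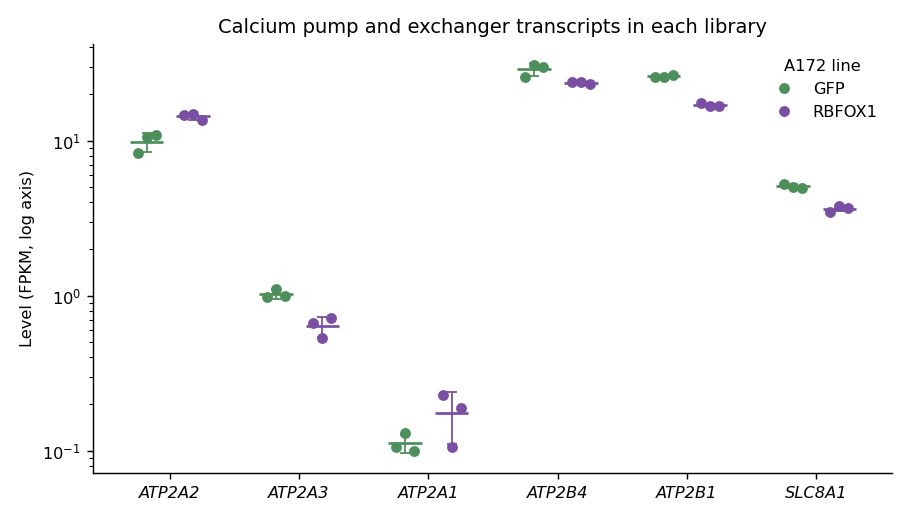
Level of 6 members in each library, as FPKM on a log axis; points are libraries (3 GFP, 3 RBFOX1), horizontal lines are means and error bars are SD. ATP2A2 lies higher in the RBFOX1 libraries, ATP2A3, ATP2B4, ATP2B1 and SLC8A1 lie lower, and ATP2A1 overlaps.

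The order of the leading genes depends on the length used. Divided by the longest coding transcript instead of all annotated exons, ATP2B1 (34.4 ± 0.550 FPKM) exceeded ATP2B4 (30.8 ± 2.86, SD, n = 3 each) in all 3 GFP libraries, whereas with the exon length ATP2B4 was the higher in 2 of 3. In RBFOX1 cells ATP2B4 exceeded ATP2B1 in 3 of 3 libraries with either length. ATP2A2, whose annotated exons cover 13745 bases against 8295 in its longest coding transcript, stayed below ATP2B1 in every RBFOX1 library with the former and stood above it in every one with the latter, at 23.7 ± 1.15 against 22.4 ± 0.480 FPKM (SD, n = 3 each). Differences between conditions within a gene do not depend on its length.

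Of the 10 genes, 7 had the 10 counts in all that testing required, and 6 of these passed the threshold, 2 higher and 4 lower in RBFOX1 cells. Over all genes tested 46.7% passed, 23.7% higher and 22.9% lower, and of the 12012 genes averaging 50 or more normalized counts 63.8% did, 30.4% higher and 33.4% lower. The 3 RBFOX1 libraries all lay on one side of the 3 GFP libraries for 6 of the 7 members, as for 53.4% of all genes tested and 68.6% of those averaging 50 or more normalized counts. A call or a separation as such therefore does not set these genes apart. In RNA from whole cultures, fewer cells with a transcript and less transcript per cell cannot be told apart.

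The main ER pump gene rose. ATP2A2 (ENSG00000174437, chr12:110280756-110351093, plus strand) had 8.26, 10.5 and 10.8 FPKM in GFP replicates 1, 2 and 3 and 14.7, 14.7 and 13.5 FPKM in RBFOX1 replicates 1, 2 and 3. Every RBFOX1 library lay above every GFP library, and GFP replicate 1 was the lowest of all. The gene was 1.46-fold higher, a log2 fold change of 0.54 (standard error 0.0759, edgeR adjusted p = 5.26e-06). Without GFP replicate 1 the log2 fold change was 0.43 (edgeR adjusted p = 5.19e-08). Of the genes averaging 50 or more normalized counts, 13.4% had a larger rise.

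The second SERCA gene moved the other way. ATP2A3 (ENSG00000074370, chr17:3923870-3964464, minus strand) encodes SERCA3, a lower-affinity form known from blood cells, endothelium and secretory epithelia. Its counts were 154, 91 and 91 in the GFP libraries and 35, 46 and 75 in the RBFOX1 libraries, or 0.977, 1.11 and 1.00 against 0.663, 0.534 and 0.716 FPKM. The groups did not overlap, and the gene was 1.60-fold lower in RBFOX1 cells (log2 fold change -0.68, standard error 0.146, edgeR adjusted p = 0.000669, and -0.72 without GFP replicate 1). Endothelial markers moved the opposite way, with a summed normalized count of 17.9 to 21.2 under GFP and 100 to 122 under RBFOX1 over 5 genes, none at 10 counts in every library. The 7 blood cell markers summed to 63.1 to 86.8 and 83.4 to 92.2. Of these, PTPRC and ITGAM had at least 10 counts in every library, and CD3E, AIF1 and HBB had 0 throughout. The part of these in the value of ATP2A3 was not tested. ATP2A1 (ENSG00000196296, chr16:28878405-28904466, plus strand) had 8, 6 and 13 counts in the RBFOX1 libraries, its groups overlapped, and it did not pass the threshold (log2 fold change 0.60, standard error 0.403, edgeR adjusted p = 0.244). Its antisense neighbour ATP2A1-AS1 on the opposite strand, with which it shares 982 exonic bases, rose from a normalized count of 58.6 ± 9.11 to one of 89.8 ± 7.06 (SD over 3 libraries; log2 fold change 0.62, edgeR adjusted p = 0.00199). Reads were counted by strand.

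SERCA transcript therefore became more uniform. ATP2A2 made up 88.4, 89.4 and 90.8% of summed SERCA FPKM in GFP replicates 1, 2 and 3 and 94.3, 95.8 and 93.7% in RBFOX1 replicates 1, 2 and 3. The share of ATP2A3 went from 9.44 ± 1.03% under GFP to 4.23 ± 0.744% under RBFOX1 (SD over 3 libraries), with no overlap. Without division by gene length the share of ATP2A2 differed by 2.79 percentage points, against 5.08 with it. Within a library, ATP2A2 exceeded ATP2A3 9.52-fold in GFP and 22.6-fold in RBFOX1 cells, a difference of 1.25 on the log2 scale that needs no scaling between libraries. The exact two-sided permutation test gave p = 0.1 for each of these, the smallest value that 3 against 3 libraries allow, so that these shares could not pass 0.05 by this test.

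Both housekeeping PMCA genes fell, ATP2B1 by more. ATP2B1 (ENSG00000070961, chr12:89588049-89709366, minus strand) had 25.8, 25.7 and 26.5 FPKM in the GFP libraries and 17.4, 16.8 and 16.7 FPKM in the RBFOX1 libraries. Within each group its libraries lay within 1 FPKM of each other, far less than the distance between the groups. It was 1.54-fold lower (log2 fold change -0.62, standard error 0.0471, edgeR adjusted p = 1.04e-09, and -0.62 without GFP replicate 1), and 10.1% of genes averaging 50 or more normalized counts had a larger fall. The lncRNA ATP2B1-AS1 at its 5' end was at a normalized count of 29.0 ± 8.10 with GFP and 32.8 ± 2.70 with RBFOX1 (SD over 3 libraries), and overlapped between the groups (edgeR adjusted p = 0.770).

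ATP2B4 (ENSG00000058668, chr1:203626832-203744081, plus strand), whose product is a calmodulin-stimulated pump often placed in signalling domains of the plasma membrane, changed least of the members called. Its level was 25.7, 30.7 and 29.8 FPKM in the GFP libraries and 23.7, 24.0 and 23.2 FPKM in the RBFOX1 libraries. The groups did not overlap, but GFP replicate 1 lay closer to the RBFOX1 libraries than to the other GFP libraries. It was 1.21-fold lower (log2 fold change -0.28, standard error 0.0586, edgeR adjusted p = 0.000515, and -0.35 without GFP replicate 1), and 26.8% of genes at or above that mean had a larger fall.

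**Figure D2:**
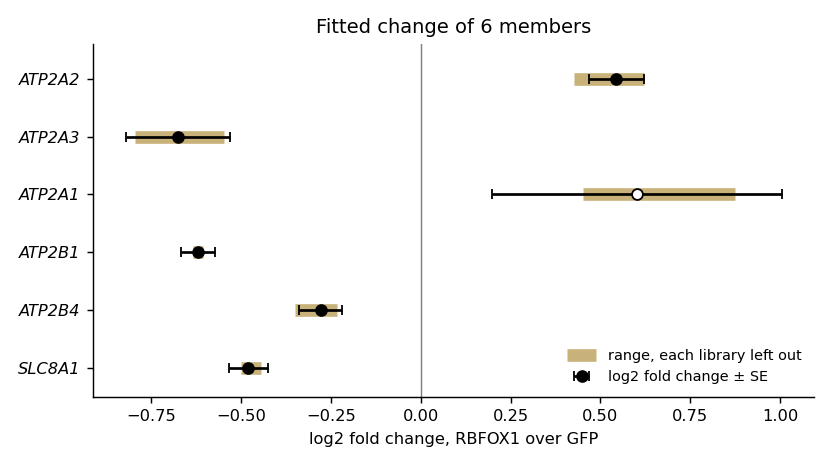
Fitted log2 fold change (RBFOX1 over GFP) of 6 members with its standard error; filled points passed an adjusted p under 0.05, the open point (ATP2A1) did not, and the shaded bars span the fits that left out each library in turn. ATP2B2 is not drawn because its fitted value rests on 2 counts in GFP cells.

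The balance of the PMCA isoforms shifted towards ATP2B4. ATP2B1 supplied 50.1, 45.6 and 47.1% of summed PMCA FPKM in the GFP libraries and 42.1, 41.0 and 41.8% in the RBFOX1 libraries. ATP2B4 supplied 52.4 ± 2.33% under GFP and 58.1 ± 0.634% under RBFOX1 (SD over 3 libraries). Neither share overlapped between the groups. The log2 ratio of ATP2B1 to ATP2B4 fell by 0.34, and over the 2 isoform pairs that could be compared the adjusted exact permutation p was 0.1, again the smallest value possible.

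The neuronal PMCA genes stayed near the limit of detection. ATP2B2 (ENSG00000157087, chr3:10324023-10708007, minus strand), best known from hair cells and Purkinje neurons, went from 2, 0 and 0 counts with GFP to 10, 6 and 10 with RBFOX1 and passed the threshold (edgeR adjusted p = 0.000271). Taken against 3 counts in each GFP library its level was 3.999-fold higher, yet it supplied no more than 0.309% of PMCA transcript in any library. ATP2B3 (ENSG00000067842, chrX:153517642-153582939, plus strand) had no count with GFP and 1, 2 and 0 with RBFOX1 and was not tested. Among the 8 neuron markers, SYP, TUBB3 and GAD1 had at least 10 counts in every library and RBFOX3, SNAP25 and GRIN1 at most 3, and the summed normalized count of the list lay between 225 and 251 in GFP and between 285 and 329 in RBFOX1 cells. The part of this in the value of ATP2B2 was not tested.

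**Figure D3:**
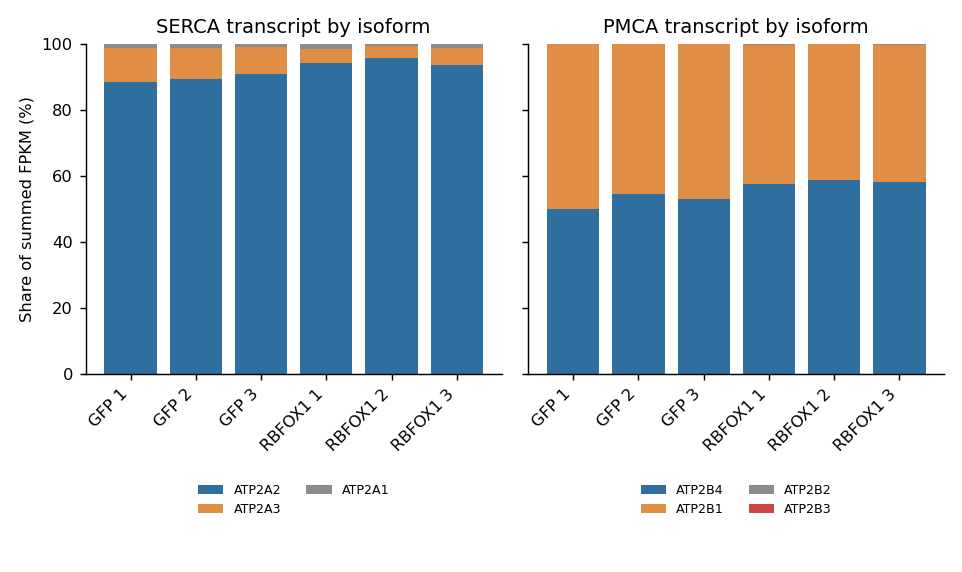
Share of each isoform in the summed FPKM of SERCA (left) and PMCA (right), in percent, for each library. The share of ATP2A2 is 88.4 to 90.8% in GFP and 93.7 to 95.8% in RBFOX1 libraries, and that of ATP2B4 is 49.9 to 54.4% and 57.6 to 58.8%.

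SLC8A1 was the only NCX gene measured well, and it fell. SLC8A1 (ENSG00000183023, chr2:40097270-40611053, minus strand), which encodes the exchanger known best from heart and widely present elsewhere, had 5.27, 5.03 and 4.97 FPKM in the GFP libraries and 3.49, 3.77 and 3.67 FPKM in the RBFOX1 libraries. All RBFOX1 libraries lay below all GFP libraries. The gene was 1.39-fold lower (log2 fold change -0.48, standard error 0.0543, edgeR adjusted p = 3.33e-07, and -0.45 without GFP replicate 1), and 15.0% of genes averaging 50 or more normalized counts had a larger fall. Its mean share of NCX transcript was 99.8 ± 0.147% under GFP and 99.6 ± 0.354% under RBFOX1 (SD over 3 libraries). SLC8A2 (ENSG00000118160) had 3 counts and SLC8A3 (ENSG00000100678) 1 count over all 6 libraries, too few to test. The antisense gene SLC8A1-AS1, which shares 2040 exonic bases with SLC8A1 on the opposite strand, was also lower, on 53 counts in all. Its normalized count was 12.2 ± 0.482 under GFP and 4.38 ± 1.87 under RBFOX1 (SD over 3 libraries). The log2 fold change was -1.47 (edgeR adjusted p = 0.00808). The part of SLC8A1 reads assigned to the wrong strand in this value was not tested.

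Summed over each family, SERCA transcript was higher and PMCA and NCX transcript were lower in RBFOX1 cells. Summed SERCA was 9.35, 11.7 and 11.9 FPKM in GFP replicates 1, 2 and 3 and 15.6, 15.4 and 14.4 FPKM in RBFOX1 replicates 1, 2 and 3, a mean 1.38-fold higher. Summed PMCA was 51.6, 56.5 and 56.3 FPKM in the GFP and 41.2, 40.8 and 40.0 FPKM in the RBFOX1 libraries, 1.35-fold lower. Summed NCX went from 5.10 ± 0.152 to 3.66 ± 0.137 FPKM (SD, n = 3 each), 1.39-fold lower. No family overlapped between the groups, and the exact permutation p was 0.1 for each, the smallest possible here. These sums give transcript, not pump number or transport.

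The ratio between the families, a measure chosen after the changes above had been seen, moved with little spread among RBFOX1 libraries. PMCA transcript exceeded SERCA transcript 5.00-fold in GFP and 2.69-fold in RBFOX1 cells, and 3.65-fold and 1.92-fold when the longest coding transcript was the length. The log2 ratio of SERCA to PMCA was -2.46, -2.27 and -2.24 in the GFP libraries and -1.40, -1.41 and -1.47 in the RBFOX1 libraries, 0.90 higher in the latter (exact permutation p = 0.1). SERCA against NCX moved alike, by 0.95, from a ratio of 2.15 to one of 4.14.

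**Figure D4:**
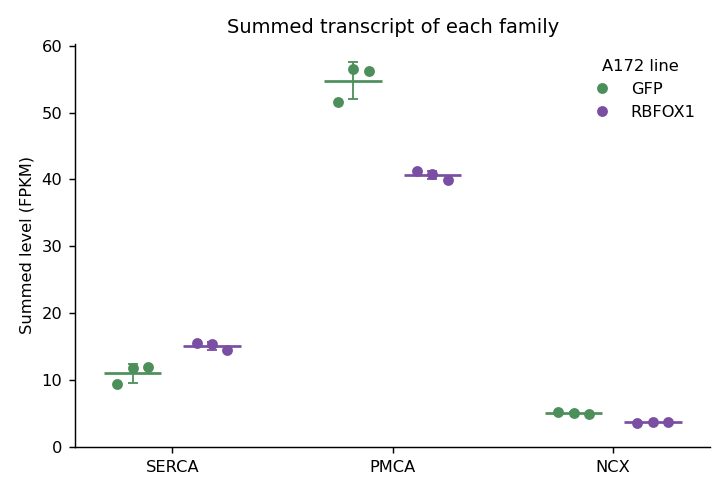
Summed level of SERCA, PMCA and NCX transcript in each library, in FPKM from 0; points are libraries, lines are means and error bars are SD over 3 libraries. SERCA lies between 9.35 and 11.9 in GFP and between 14.4 and 15.6 in RBFOX1 libraries, and PMCA between 51.6 and 56.5 and between 40.0 and 41.2.

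Genes with the most similar course over the 6 libraries were looked up for the leading member of each family, by the smallest root mean square difference of log2 CPM after subtraction of the GFP mean, among 11052 other protein-coding genes. For ATP2A2 they were NCL (0.0193), C2CD5 (0.0345) and NUP160 (0.0418). For ATP2B4 they were MTX3 (0.0199), ADK (0.0263) and CTTNBP2NL (0.0283), and for SLC8A1 they were ANXA6 (0.0183), CDC40 (0.0191) and RSU1 (0.0191). Within a difference of 0.1 lay 121 genes for ATP2A2, 556 for ATP2B4 and 738 for SLC8A1, so such courses were common.

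Of 15 genes listed by hand whose products act on the pumps, 13 were found by symbol and 9 were tested, of which 4 were higher and 4 lower, beside 23.7% higher and 22.9% lower over all genes tested. Their median log2 fold change was 0.070, against 0.0051 over all genes tested. Calls in both directions were common over all genes tested, and neither this list nor the following ones were tested as sets. The small SERCA inhibitors of muscle were almost absent: PLN had at most 3 counts and SLN at most 2 in a library, and MRLN and STRIT1, the latter an activator, had none. ERLN and ARLN, also on the list, were not found by symbol, so their levels were not looked at. S100A1, a calcium-binding protein known to enhance SERCA in muscle, went from 9, 3 and 3 counts with GFP to 44, 45 and 77 with RBFOX1, with no overlap (log2 fold change 3.88, standard error 0.300, edgeR adjusted p = 1.37e-09).

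Calmodulin, the activator of PMCA pumps, is made from several genes. CALM2, the highest of the partners per kilobase, rose from 117 ± 3.15 to 168 ± 5.82 FPKM and CALM3 from 13.2 ± 0.596 to 21.6 ± 0.657 FPKM (SD, n = 3 each), log2 fold changes of 0.51 and 0.72. Both passed the threshold, with edgeR adjusted p-values of 1.99e-08 and 1.51e-09. Of the PMCA subunits, NPTN rose (log2 fold change 0.21, edgeR adjusted p = 0.00414) and BSG had a log2 fold change of 0.070 (edgeR adjusted p = 0.225). The ER lipid scramblase gene TMEM41B fell by 0.63 on the log2 scale (edgeR adjusted p = 1.40e-08), and the related VMP1, known to act on SERCA, by 0.28 (edgeR adjusted p = 6.86e-05).

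Of 10 calcium transporters outside the families, 6 were tested, 2 higher and 3 lower (23.7% and 22.9% of all genes tested), with a median log2 fold change of -0.24. Without RBFOX1 replicate 3 only 1 was called higher. SLC8B1, the sodium-calcium exchanger of mitochondria, fell furthest, from a normalized count of 958 ± 23.3 to one of 362 ± 16.7 (SD over 3 libraries; log2 fold change -1.41, standard error 0.0664, edgeR adjusted p = 6.86e-13). ATP2C1, the calcium and manganese pump of the Golgi, fell from 19.7 ± 1.22 to 13.2 ± 0.442 FPKM (SD, n = 3 each; log2 fold change -0.57), and TMEM165, a Golgi transporter of manganese and calcium, had a log2 fold change of -0.83. Both passed the threshold (edgeR adjusted p = 4.21e-08 and 1.75e-08). TMCO1, an ER protein linked to calcium release from overfilled stores and the highest of the list, rose (log2 fold change 0.28, edgeR adjusted p = 0.000345). SLC24A3, a potassium-dependent exchanger, went from 2, 0 and 0 counts to 3, 4 and 13. Taken against 3 counts in each GFP library it was 2.56-fold higher.

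The sodium-potassium pump supplies the gradient that NCX proteins use. Of its 13 listed genes 10 were tested, 7 of them higher and 2 lower, beside 23.7% and 22.9% of all genes tested. The 2 lower calls were lost with library totals, DESeq2 or the replicate block, and without GFP replicate 3, RBFOX1 replicate 2 or RBFOX1 replicate 3, and the genes called higher were 4 without RBFOX1 replicate 2. The median log2 fold change was 1.10, or 1.05 with the 2 genes at 3 counts or fewer in every GFP library set to their bound. ATP1B3, the highest of the list, had a log2 fold change of -0.094 and did not pass (edgeR adjusted p = 0.146). Among the genes that rose was FXYD6, at most 1.47 FPKM in the mean of a group (log2 fold change 1.16, edgeR adjusted p = 1.73e-06). ATP1B2, the astrocyte beta subunit, also rose (log2 fold change 2.09, edgeR adjusted p = 0.00492). It lay near the floor, with 4, 2 and 1 counts in the GFP and 3, 12 and 8 in the RBFOX1 libraries. FXYD7 went from no count to 3, 8 and 8, and FXYD3 from 2, 1 and 1 to 4, 6 and 4 counts. Taken against 3 counts in each GFP library, FXYD7 was 2.55-fold and FXYD3 2.07-fold higher. The FXYD genes encode small modulators of this pump. FXYD5, the highest of them in the list, went the other way. It was at 33.8 ± 0.944 FPKM in GFP and 30.5 ± 0.978 FPKM in RBFOX1 cells (SD, n = 3 each). Its log2 fold change was -0.15 (edgeR adjusted p = 0.0283), and it was among the 2 lower calls.

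Of 14 genes for ER calcium-binding proteins 13 were tested, 1 higher and 6 lower, beside 23.7% and 22.9% of all genes tested (median log2 fold change -0.081). CALR, the main luminal calcium buffer and the highest of the list, was at 218 ± 15.7 and 216 ± 14.5 FPKM (SD, n = 3 each; edgeR adjusted p = 0.911), while CALU (log2 fold change -0.92), RCN2 (-0.68) and RCN1 (-0.57), of the CREC family of EF-hand proteins, fell, with edgeR adjusted p-values of 1.90e-12, 1.59e-09 and 7.62e-09. SDF4, of the same family, did not pass (log2 fold change -0.043, edgeR adjusted p = 0.605). The gene that rose was CASQ1, the calcium store protein of skeletal muscle, from 2, 0 and 3 to 7, 14 and 15 counts. Taken against 3 counts in each GFP library it was 4.94-fold higher. Of 8 muscle markers, DES alone had at least 10 counts in every library, MYH1, ACTA1, CKM and MYOG had at most 3, and the summed normalized count of the list was 112 to 124 in GFP and 223 to 240 in RBFOX1 cells. The part of these in the values of ATP2A1, CASQ1 and S100A1 was not tested.

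Of 9 genes for mitochondrial calcium uptake, each of which was tested, MCU, the pore of the uniporter, rose (log2 fold change 0.28, edgeR adjusted p = 0.00279), and 3 fell, beside 23.7% higher and 22.9% lower over all genes tested. Without GFP replicate 1, 2 of the 9 were called higher. VDAC1, the highest of these and a channel of the outer membrane, had a log2 fold change of -0.18 (edgeR adjusted p = 0.00380), and MICU2, a gatekeeper of the pore, one of -0.34 (edgeR adjusted p = 0.000420). The median over the list was 0.0064.

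**Figure D5:**
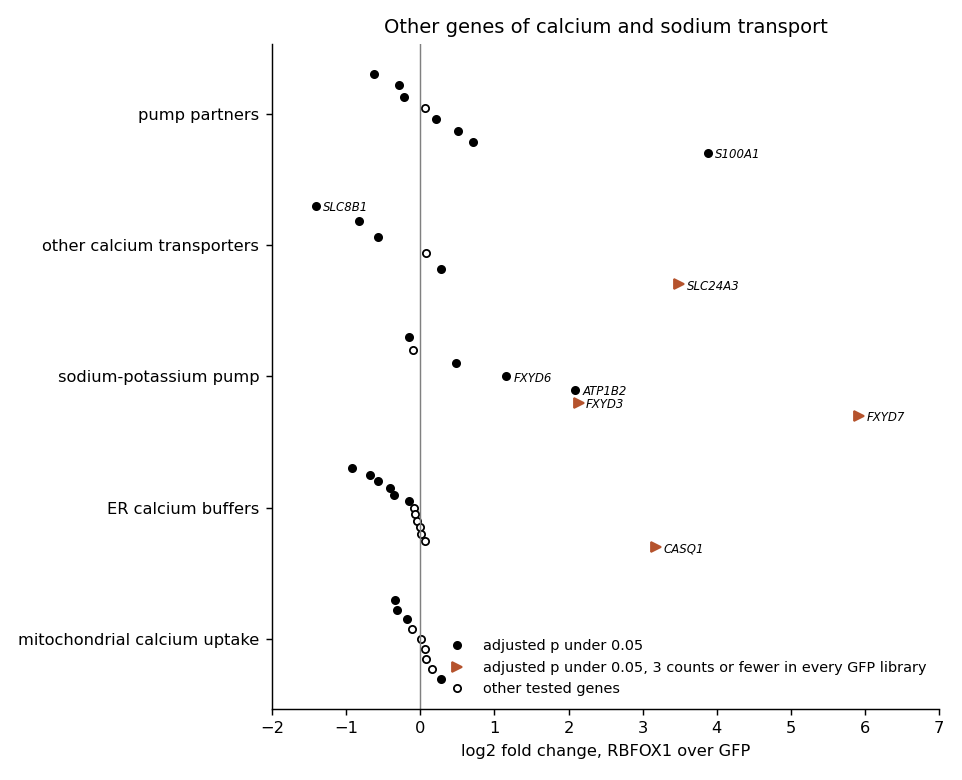
Fitted log2 fold change (RBFOX1 over GFP) of tested genes in 5 hand-written lists, without the few not reported here; filled circles passed an adjusted p under 0.05, open circles did not, and triangles mark called genes with 3 counts or fewer in every GFP library, whose fitted value depends on the prior count. SLC8B1 lies lowest at -1.41, and S100A1 at 3.88 is the highest of the genes drawn as circles.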

How the data were processed

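Total RNA of 6 A172 libraries (3 per condition) was rRNA-depleted and sequenced as stranded pairs. The authors aligned reads to GRCh38 with HISAT2 and deposited raw counts per Ensembl 87 gene from HTSeq-count (intersection-strict, reverse strand), with no normalization. The 5 lines that name no gene (38.1 to 48.0% of read pairs) stayed out of totals. The authors' deposited DESeq2 table (means, fold changes, p-values) was not used.

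Counts were TMM-scaled and tested with edgeR 4.0.16 (R 4.3.3) by the two-sided quasi-likelihood test, modelling condition alone, for genes with at least 10 counts over the libraries. Adjustment was by Benjamini-Hochberg over all genes tested. Standard errors were the log2 fold change over the root of the F statistic. Bounds were taken against 3 counts in each library, and cover counting error only. Shares, ratios and sums were compared by exact permutation of libraries (scipy 1.17.1). GENCODE 44, later than the annotation of the counts, gave gene lengths, positions and UTRs. DESeq2 1.42.0 and limma 3.58.1 (voom), other scalings and filters, a replicate block and the omission of each library were alternatives, and the fits were tested on simulated data.

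The members and lists were chosen with earlier results of these data known. Named were the 10 members, pathway genes called with a log2 fold change of 0.5 or more in size, the highest gene of each list, and the 3 genes most like each leading member, Y-linked genes left out after their names had been seen. NPTN, BSG, VMP1, PLN, SLN, MRLN, STRIT1, FXYD5, SDF4, MCU, MICU2 and the antisense genes were named after their values had been seen. Some genes of the lists count in their totals but are not reported here by name.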

Additional observations from a re-analysis of the deposited data

How the results depend on the processing

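The 7 tested members kept their direction and their side of the threshold in all 96 alternative fits, with edgeR, DESeq2 and limma-voom, under each scaling and filter, with the replicate block and with each library left out. ATP2A1 and ATP2B2 could not be fitted with filterByExpr. The log2 fold change ranged from 0.43 to 0.62 for ATP2A2, from -0.80 to -0.55 for ATP2A3, from -0.64 to -0.57 for ATP2B1, from -0.35 to -0.23 for ATP2B4, from -0.50 to -0.43 for SLC8A1 and from 3.51 to 6.19 for ATP2B2, the last without GFP replicate 1, where GFP cells had no count. Same-numbered libraries showed no shared deviation (correlations of -0.18, 0.034 and -0.064, and -0.17 to 0.19 for libraries of different number). With 3 libraries per group this cannot decide whether the samples were handled in pairs. With the replicate block 4588 genes were higher and 4458 lower, against 4869 and 4712 without it, ATP2A2 had a log2 fold change of 0.55 (edgeR adjusted p = 2.08e-05) and no member's call changed. Sign flips of same-numbered pairs could not go below an exact p of 0.25. Scaling by library totals gave 56.6% of calls as higher against 50.8% with TMM.

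The share of ATP2A1 in SERCA, 0.13 percentage points higher in RBFOX1 cells, was -0.030 without RBFOX1 replicate 1 and 0.36 without RBFOX1 replicate 2. Counts of pathway genes moved where calls were few. Sodium-potassium pump genes higher were 4 with filterByExpr, which drops low genes, and 4 to 7 with a library left out (4 without RBFOX1 replicate 2). Those lower, 2 in the report, were 0 with library totals, DESeq2 and the replicate block, 1 with filterByExpr and 0 to 2 with a library left out (1 without GFP replicate 2, 0 without GFP replicate 3, RBFOX1 replicate 2 or RBFOX1 replicate 3). Other calcium transporters higher were 1 with filterByExpr and 1 to 2 with a library left out (1 without RBFOX1 replicate 3). Mitochondrial uptake genes higher were 2 with library totals and filterByExpr and 1 to 2 with a library left out (2 without GFP replicate 1). The cause of these moves was not tested.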
